A study of Mus musculus with 36 samples.

Results

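The host gene of the miR-17~92 cluster and 9 genes of the core microRNA machinery were examined in gonads of mouse embryos that lack the cluster. The 10 genes were taken by symbol from the count tables of both stages: Mir17hg (the host gene), Drosha and Dgcr8 (nuclear cleavage), Xpo5 (export), Dicer1 (cytoplasmic cleavage), Ago1, Ago2, Ago3 and Ago4 (Argonautes) and Tnrc6a (a GW182 protein). All 10 were present among the 21699 genes of each table and among the 14217 tested at E11.5 and the 14348 tested at E12.5, where E stands for the embryonic day. The bulk RNA-seq compared XX and XY embryos with and without the cluster, which gives 4 genotypes at each stage, with 3 libraries per group and 2 pairs of gonads pooled in each library. Controls carry the label WT and the KO libraries the label MiRC1 Mutant. By the study's methods the KO embryos are miR-17~92 del/del and come from a floxed line of C57BL/6 × 129S4/SvJae background that was crossed with Tg(CAG-cre)1Nagy. The CAG promoter drives Cre in most tissues of the embryo, so the cluster was not removed from the gonad alone, and whether controls carried Cre is not given in the sources used here. The samples at E11.5 were complexes of gonad and mesonephros and those at E12.5 gonads alone, prepared with different library kits, so each stage was analysed by itself.

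MicroRNAs arise from long primary transcripts. DROSHA, held by its partner DGCR8, cuts a hairpin out of the transcript in the nucleus, Exportin-5 (Xpo5) carries the hairpin to the cytoplasm, and DICER1 trims it to a duplex. An Argonaute protein keeps 1 strand of the duplex and, through a GW182 protein such as TNRC6A, lowers the stability and translation of messenger RNAs that pair with the seed, bases 2 to 8 of the microRNA. Several Argonaute and Dicer transcripts carry long 3′ UTRs and are themselves open to such pairing, and the miR-17~92 host gene is known as a target of MYC, MYCN and E2F factors.

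The cluster holds 6 hairpins in 836 bases of chromosome 14 (GRCm38, forward strand, 115043671 to 115044506). The guide strands are shown because they are what the deleted hairpins encode, as RefSeq (GRCm38.p6) gives them, 5′ to 3′, with the seed in capitals. They fall into 4 seed families.
miR-17-5p: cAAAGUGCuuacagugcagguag
miR-20a-5p: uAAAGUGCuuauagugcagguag
miR-18a-5p: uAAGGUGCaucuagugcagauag
miR-19a-3p: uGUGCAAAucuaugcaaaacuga
miR-19b-3p: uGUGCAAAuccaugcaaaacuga
miR-92a-3p: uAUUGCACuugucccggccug
In the RefSeq table all of these seeds also occur in hairpins that lie elsewhere. The miR-17 seed is shared by miR-20b, miR-93, miR-106a, miR-106b and miR-6383, the miR-18 seed by miR-18b, and the miR-92 seed by miR-25, miR-32, miR-92b, miR-363 and miR-367. The hairpins Mir19b-2 and Mir92-2 on the X chromosome encode miR-19b-3p and miR-92a-3p themselves. These libraries do not measure mature microRNAs.

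Total counts per library lay between 17150620 and 34077443 at E11.5 and between 11877379 and 44155275 at E12.5. Levels are given as CPM, counts scaled to the library size and to TMM factors, and a gene was called when its Benjamini-Hochberg adjusted p (FDR) in edgeR's quasi-likelihood test was under 0.05. Summed markers of gonadal somatic cells were 1017 to 1451 CPM at E11.5 and 1431 to 2068 CPM at E12.5, with all 6 markers tested at both stages. At E12.5 the 8 Sertoli cell markers, which label the supporting cells of the testis, summed to 1554 to 2159 CPM in XY controls and to 45.4 to 63.7 CPM in XY KO gonads, so the cell types compared differ between these groups. Less RNA of a gene per cell and fewer cells that express it cannot be told apart in bulk RNA-seq.

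Mir17hg, the non-coding host transcript, was the one gene of the 10 that was called in each comparison of KO with control gonads, and it was higher in the KO. The gene (ENSMUSG00000089726) spans 115042879 to 115046727 of chromosome 14, and the hairpins lie in the 3457-base second exon of its annotated transcript. They span 23.6% of its 3536 exonic bases, so 76.4% of the bases lie outside the deleted microRNAs and the count of the whole gene is no check of the deletion. At E11.5 the 6 KO libraries had 98.2 to 154 CPM and the 6 control libraries 17.6 to 44.6 CPM. At E12.5 the KO libraries had 66.7 to 83.8 CPM and the controls 13.4 to 37.3 CPM. No KO library overlapped a control library at either stage. Within a sex, the libraries of 28.5% of all genes in XY and 24.6% in XX gonads did not overlap at E11.5, and those of 39.1% and 23.5% at E12.5. Averaged over XX and XY gonads, the log2 fold change was 2.20 (95% interval 1.81 to 2.59, FDR = 2.33e-05) at E11.5 and 1.56 (1.23 to 1.88, FDR = 9.67e-06) at E12.5. In this averaged comparison 15% of all genes tested were called at E11.5 and 18.5% at E12.5. Without XX control replicate 1 the increase in XX gonads of E12.5 was no longer called (log2 fold change 1.16, FDR = 0.0541). That fit called 35 of all genes in XX gonads, against 755 with all 12 libraries.

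**Figure D1:**
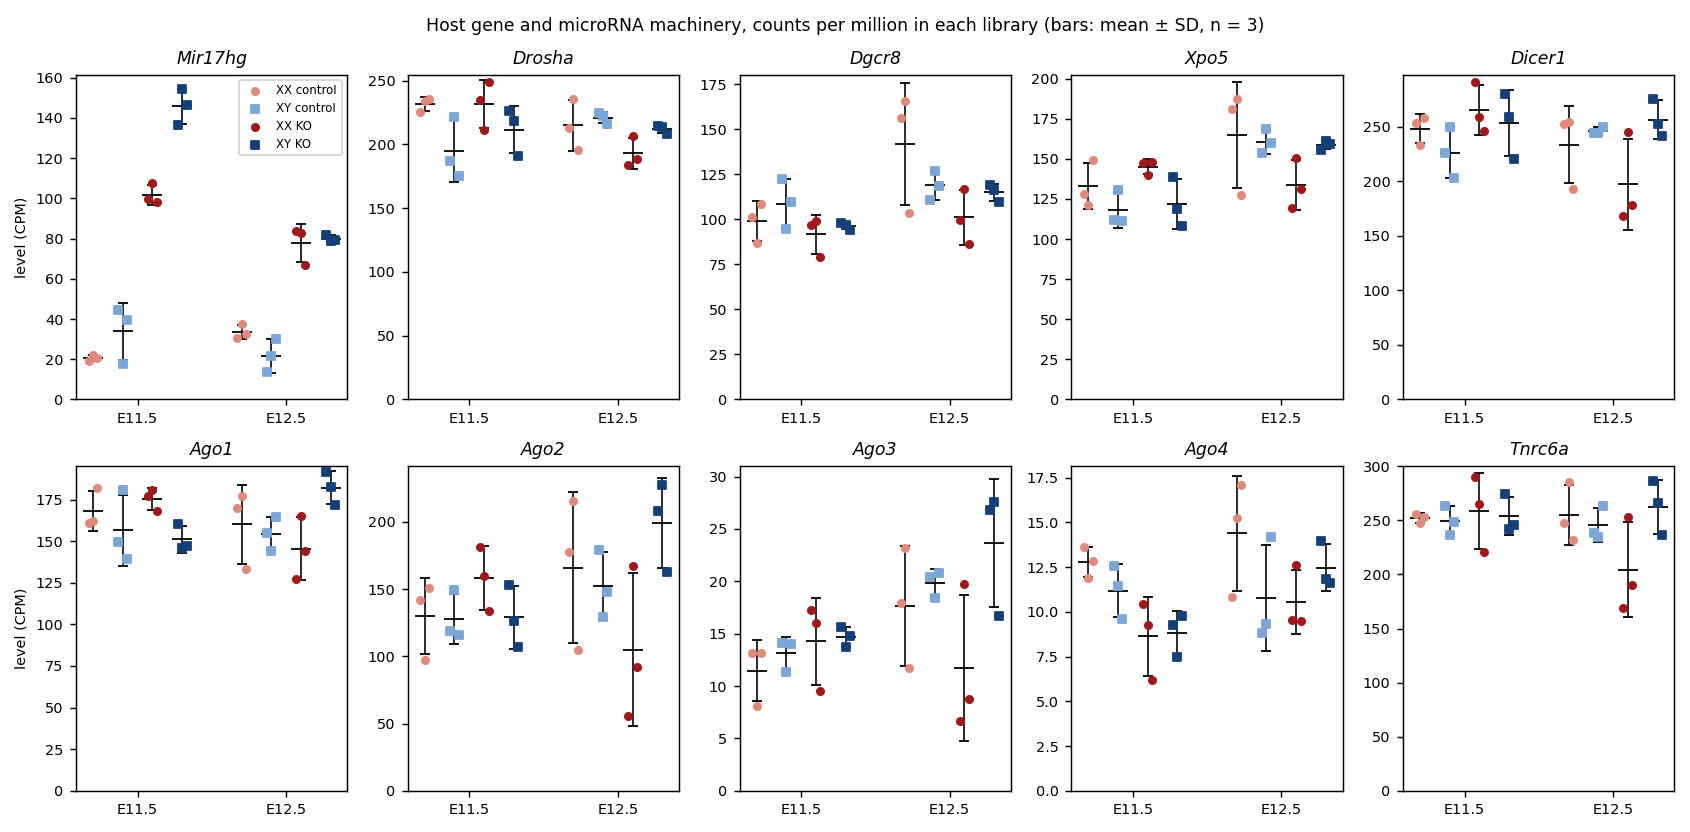
Level of each gene in every library (CPM, linear axes from 0; circles XX, squares XY, light controls, dark KO; bars are mean ± SD of 3 libraries). Mir17hg separates KO from control at both stages, whereas the machinery genes overlap between KO and control of a sex except Ago4 in XX libraries of E11.5 and Ago1 and Drosha in XY libraries of E12.5.

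The order of the Mir17hg levels between the sexes differed between the stages. At E11.5 the 3 XY KO libraries (137, 154 and 146 CPM) lay above the 3 XX KO libraries (99.9, 107 and 98.2 CPM), as the libraries of 24.5% of all genes did not overlap here. The log2 fold change between the KO genotypes, XX over XY, was -0.52 (95% interval -1.03 to -0.00, FDR = 0.31) and was not called, where 0.0844% of all genes were. The XX controls of that stage had 19.2, 22.1 and 20.7 CPM, and the XY controls had 44.6, 17.6 and 39.4 CPM, so that XY control replicate 2 lay below every XX control and the difference, -0.70 (FDR = 0.192), was not called. Leaving out XY control replicate 2 gave -1.02 (FDR = 4.79e-05) between the controls and brought the difference between the KO genotypes to FDR = 0.0157. Over all 14217 genes that fit called 2505 between the controls and 202 between the KO genotypes, against 126 and 12 with all 12 libraries. At E12.5 the XX controls (30.4, 37.3 and 32.4 CPM) all lay above the XY controls (13.4, 21.6 and 30.2 CPM), and Mir17hg was called higher in XX by 0.63 (standard error 0.21, FDR = 0.045). Of all genes 23.8% were called in this comparison, and the libraries of 36.6% did not overlap. The call for Mir17hg stood close to the threshold. Among the fits that leave out 1 library it remained without XX KO replicate 2 (FDR = 0.0463), XX KO replicate 3 (FDR = 0.045) or XY control replicate 3 (0.93, FDR = 0.00307), and was lost in each of the others, down to 0.37 (FDR = 0.138) without XY control replicate 1. The KO genotypes of E12.5 differed by -0.04 (95% interval -0.48 to 0.40). The effect of the deletion in XY minus that in XX gonads was 0.67 at E12.5 (95% interval 0.04 to 1.31, FDR = 0.169) and -0.18 at E11.5 (FDR = 0.869), and neither was called. The share of all genes called for this difference was 12.9% at E12.5 and 0.0352% at E11.5. Without XY control replicate 3 the difference at E12.5 was called (0.96, FDR = 0.0212).

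None of the 9 machinery genes was called in XY KO against XY control or in XX KO against XX control gonads at either stage. The share of all genes called was 12.7% and 3.27% in these comparisons at E11.5 and 20.6% and 5.26% at E12.5, and at an unadjusted p under 0.05 the machinery counted 0, 1, 0 and 3 of 9 genes, against 28.9%, 15.7%, 31.8% and 23.6% of all genes in the same order. At E11.5 the log2 fold changes of the 9 genes ran from -0.34 to 0.17 in XY and from -0.56 to 0.33 in XX gonads, and all 9 of the 95% intervals lay within 2-fold in both sexes. At E12.5 they ran from -0.06 to 0.39 in XY gonads, with 8 of 9 intervals within 2-fold, and from -0.66 to -0.14 in XX gonads, with 7 of 9. The median size of the change, sign aside, was 0.12 for the machinery in XY and 0.11 in XX gonads of E11.5, against 0.20 and 0.13 over all genes. At E12.5 it was 0.10 in XY gonads, against 0.25 over all genes, and 0.32 in XX gonads, against 0.23.

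**Figure D2:**
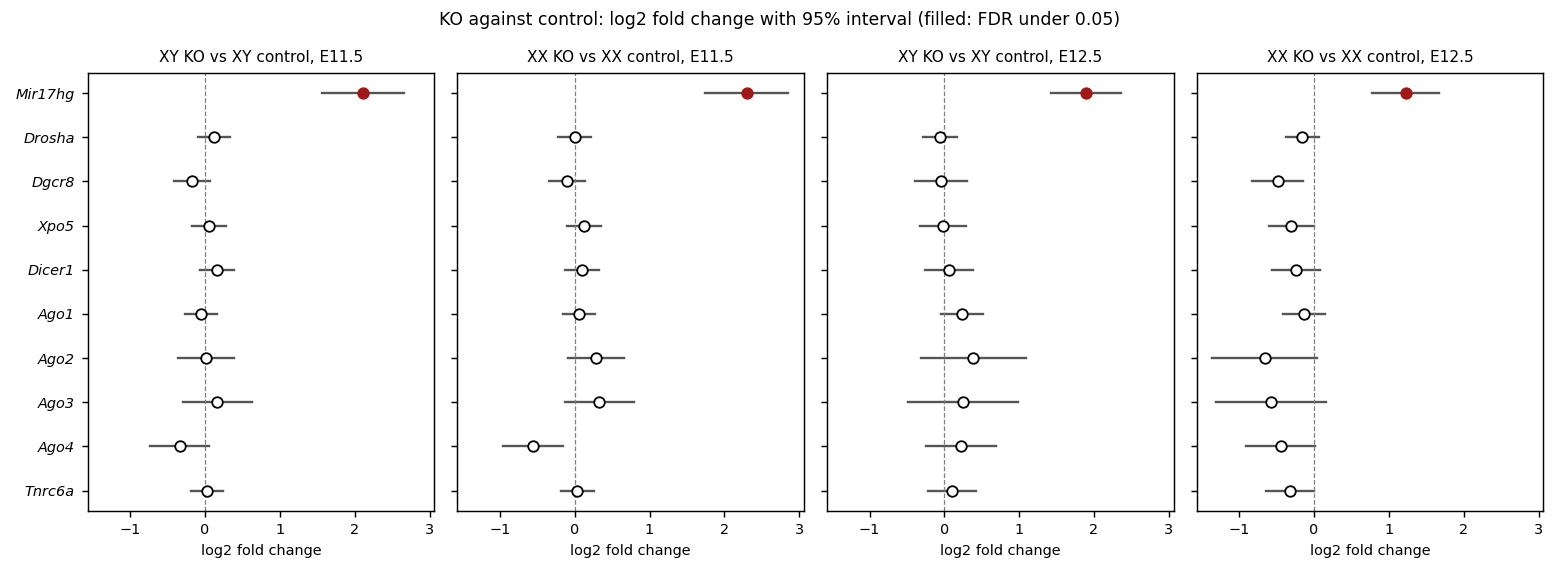
Log2 fold change of each gene in KO against control gonads, with its 95% interval, for each sex and stage (filled points, FDR under 0.05; open points, not called). Mir17hg stands at 2.11, 2.30, 1.89 and 1.22, and the 9 machinery genes lie around 0 except in XX gonads of E12.5, where all 9 points are below 0.

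Drosha, which encodes the nuclear ribonuclease, had the highest level per kb of exonic length among the 9 machinery genes, 36.7 ± 3.77 CPM per kb at E11.5 and 35.4 ± 2.52 CPM per kb at E12.5 (SD, n = 12 libraries). At E11.5 the XX controls had 225, 234 and 236 CPM and the XX KO libraries 235, 212 and 249 CPM, while the XY controls had 187, 222 and 176 CPM and the XY KO libraries 226, 218 and 191 CPM. The difference between XX and XY controls was not called (0.25, FDR = 0.228). It was called without XY control replicate 2 (0.35, FDR = 0.0241), in a fit that called 2505 of 14217 genes, against 126 with all 12 libraries. At E12.5 the XX controls had 213, 236 and 196 CPM and the XX KO libraries 184, 207 and 189 CPM, and the XY controls had 225, 222 and 216 CPM and the XY KO libraries 215, 214 and 208 CPM. The 95% interval of its log2 fold change was -0.22 to 0.22 in XX gonads of E11.5 and -0.28 to 0.17 in XY gonads of E12.5. In XY gonads of E12.5 the KO libraries lay just below the control libraries without overlap, where the libraries of 39.1% of all genes did not overlap in one direction or the other.

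Dgcr8, the partner that recognises the hairpin, stood at 12.9 ± 1.43 CPM per kb at E11.5 and 15.5 ± 2.90 CPM per kb at E12.5. In XX gonads of E12.5 the controls had 157, 166 and 103 CPM and the KO libraries 99.7, 117 and 86.6 CPM. Only XX control replicate 3 fell among the KO libraries. The log2 fold change was -0.49 (95% interval -0.83 to -0.14, FDR = 0.0906), the lowest FDR of the 9 genes in this comparison, and the gene was called with DESeq2 (-0.51, FDR = 0.0437) and without XX control replicate 3 (-0.67, FDR = 0.0161). In XY gonads of that stage it was -0.05, and in XY and XX gonads of E11.5 it was -0.18 and -0.11. Exons of Trmt2a on the opposite strand and of 3 other annotated genes overlap Dgcr8, and how such reads were counted is not given in the sources used here.

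Xpo5, the exporter of hairpins, and Dicer1, the ribonuclease that makes the mature duplex, were likewise not called. Xpo5 had 128, 122 and 149 CPM in XX controls and 148, 140 and 148 CPM in XX KO gonads at E11.5, and 181, 187 and 127 CPM against 119, 150 and 131 CPM at E12.5. The corresponding log2 fold changes were 0.13 (FDR = 0.671) and -0.31 (FDR = 0.208). Dicer1 had 253, 255 and 193 CPM in XX controls of E12.5 and 169, 245 and 178 CPM in XX KO gonads, a log2 fold change of -0.24 (95% interval -0.56 to 0.08, FDR = 0.343). In XY gonads both genes overlapped between KO and control at both stages, and the log2 fold change lay between -0.02 and 0.16. XX KO replicate 2, with 150 CPM of Xpo5 and 245 CPM of Dicer1, stood with or near the controls for both genes.

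The Argonautes differed widely in level. Per kb of exonic length, Ago1 made up 56.5% to 66.2% of the Argonaute CPM in the mean of each group and Ago2, the family member that can cut its target, 25.8% to 35.5%. Ago3 contributed 2.11% to 3.68% and Ago4 3.52% to 6.26%. Thus the order was Ago1, Ago2, Ago4, Ago3 in the mean of each genotype at both stages. The mean ± SD ranges of Ago1 and Ago2 overlapped in no group. Those of Ago3 and Ago4 overlapped in XX KO gonads of E11.5 and in XY gonads of both genotypes at E12.5. In XY controls of E12.5 they were 3.68% ± 0.0902 and 4.75% ± 1.15 (n = 3). Within each library, though, the share of Ago4 was above that of Ago3. Their order rests on the division by exonic length, 16571 bases for Ago3 and 6947 for Ago4. As CPM, the median over 12 libraries was 13.9 for Ago3 and 10.1 for Ago4 at E11.5, and 19.1 and 11.7 at E12.5. Ago1, Ago3 and Ago4 lie side by side on the reverse strand of chromosome 4, and Ago2 on chromosome 15.

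**Figure D3:**
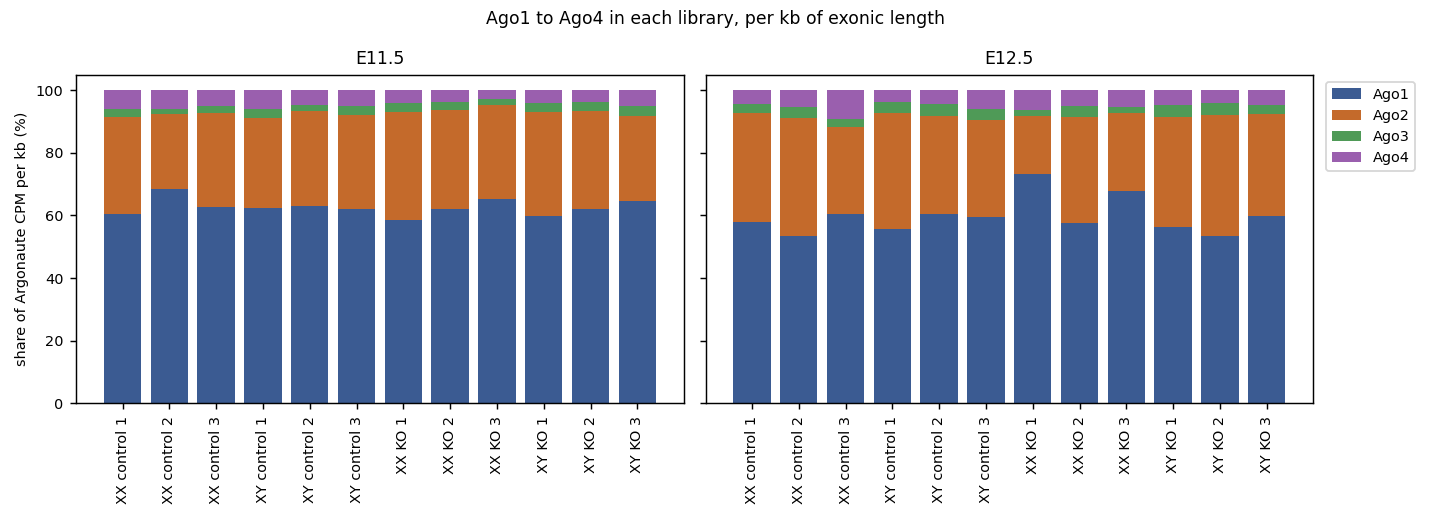
Share of Ago1 to Ago4 in the summed Argonaute level of each library (CPM per kb of exonic length, in percent; 12 libraries per stage). Ago1 is the largest part in every library and Ago2 shrinks to 18.6% in XX KO replicate 1 of E12.5, the lowest share of the 12.

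Ago4 was the one machinery gene with a called change in the edgeR fits of all 12 libraries. It was called in the averaged comparison of E11.5, as 15% of all genes were. At E11.5 the 6 control libraries had 9.58 to 13.6 CPM (median 12.2) and the 6 KO libraries 6.18 to 10.5 CPM (median 9.26). The 3 XX KO libraries (10.5, 9.27 and 6.18 CPM) lay below the 3 XX controls (13.6, 11.9 and 12.8 CPM), as the libraries of 24.6% of all genes did not overlap in this comparison, while in XY gonads the KO libraries (9.26, 7.48 and 9.74 CPM) overlapped XY control replicate 3 (9.58 CPM). Averaged over both sexes the log2 fold change was -0.45 (95% interval -0.73 to -0.17, FDR = 0.0312). The values in each sex, -0.56 in XX (FDR = 0.129) and -0.34 in XY (FDR = 0.244), were not called, and their difference was 0.22 (FDR = 0.776). The averaged call was lost, with FDR up to 0.0842, without any 1 of XX control replicates 1 and 3, XX KO replicate 3, XY control replicate 1 and XY KO replicates 1 and 2. XX KO replicate 3 also held the most erythroid RNA of the stage. Its 7 markers summed to 4254 CPM, against 1208 to 2631 CPM in the other libraries. The 5 macrophage markers summed to 89.2 to 97.7 CPM in XX controls of E11.5 and to 47.5 to 66.3 CPM in XX KO gonads. In XY gonads they summed to 79.2 to 108 CPM in controls and to 48.1 to 73.6 CPM in the KO. The part of these cells in the result was not tested. At E12.5 the control libraries had 8.84 to 17.1 CPM and the KO libraries 9.48 to 14.0 CPM, and the averaged difference was -0.11 (FDR = 0.678). The values in each sex had opposite signs there, -0.44 in XX (FDR = 0.231) and 0.22 in XY gonads (FDR = 0.541), and neither was called, nor was their difference, 0.67 (95% interval 0.01 to 1.33, FDR = 0.189).

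Ago1 and Ago2, which carry most of the Argonaute RNA, were not called in KO against control gonads. Ago1 had 155, 144 and 164 CPM in XY controls of E12.5 and 192, 182 and 172 CPM in XY KO gonads. These libraries did not overlap, as those of 39.1% of all genes did not, but the log2 fold change of 0.24 (95% interval -0.05 to 0.52, FDR = 0.246) was not called. Ago2 had 179, 129 and 148 CPM in XY controls and 208, 227 and 162 CPM in XY KO gonads (0.39, 95% interval -0.31 to 1.08, FDR = 0.463). Chrac1 overlaps exons of Ago2 on the opposite strand.

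Ago2 and Ago3 varied more between the XX libraries of E12.5 than any other of the 9 genes. Ago2 had 177, 216 and 105 CPM in the XX controls and 55.8, 167 and 91.8 CPM in XX KO gonads. Ago3 had 17.9, 23.2 and 11.8 CPM and 6.67, 19.7 and 8.79 CPM in the same libraries. For both genes XX KO replicates 1 and 3 and XX control replicate 3 were the 3 lowest of the 12 libraries of the stage, and XX KO replicate 2 stood among the controls. The log2 fold change was -0.66 (95% interval -1.36 to 0.04, FDR = 0.237) for Ago2 and -0.58 (-1.31 to 0.15, FDR = 0.32) for Ago3.

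Which of the 9 genes were called in XX gonads of E12.5 depended on single libraries. When XX KO replicate 2 was left out, 4 of the 9 machinery genes were called lower in XX KO than in XX control gonads, namely Ago2 (-1.17, FDR = 0.0257), Ago3 (-1.19, FDR = 0.0207), Dgcr8 (-0.61, FDR = 0.0376) and Tnrc6a (-0.51, FDR = 0.0298). That fit called 1680 of all 14348 genes, against 755 with all 12 libraries. Without XX control replicate 3, Dgcr8 (-0.67, FDR = 0.0161) and Xpo5 (-0.46, FDR = 0.0398) were called, as 1047 of all genes were. Leaving out any of the other 4 XX libraries called none of the 9. With all 12 libraries, Tnrc6a, which bridges Argonautes to the enzymes that remove the poly(A) tail, had 247, 286 and 232 CPM in XX controls and 169, 253 and 190 CPM in XX KO gonads, a log2 fold change of -0.32 (95% interval -0.64 to -0.00, FDR = 0.208).

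**Figure D4:**
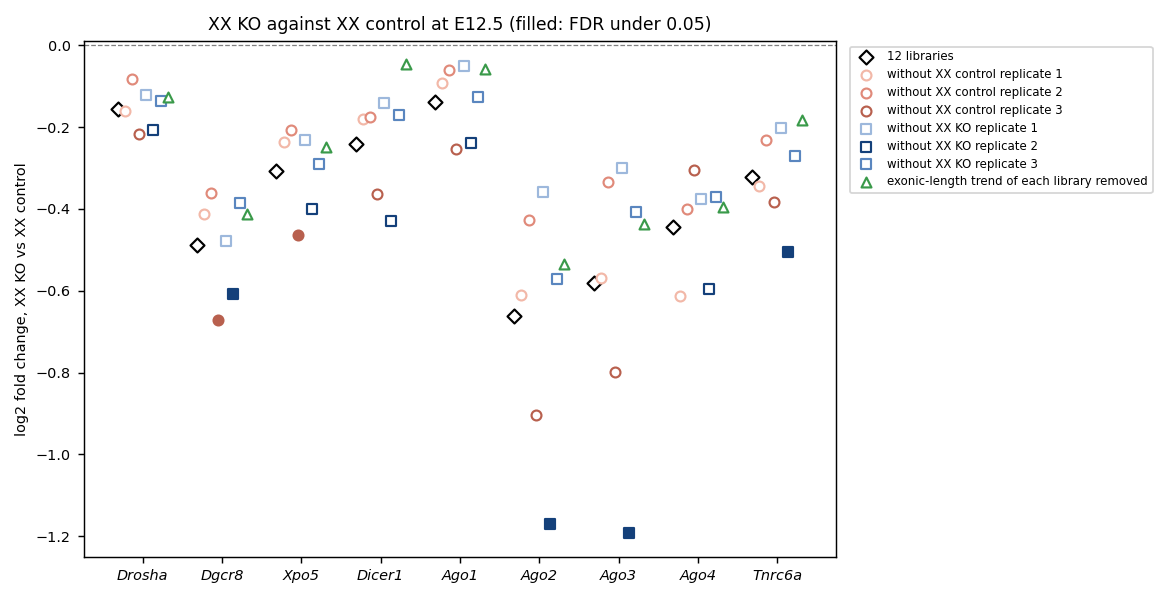
Log2 fold change of the 9 machinery genes in XX KO against XX control gonads of E12.5 with all 12 libraries, with each XX library left out in turn, and with a trend on gene length removed from each library (filled, FDR under 0.05). Ago2 and Ago3 reach -1.17 and -1.19 without XX KO replicate 2 and lie between -0.90 and -0.30 otherwise.

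The same 3 libraries stood apart over the whole transcriptome by gene length. In each library the log2 level of a gene relative to its median over the 12 libraries was compared with the exonic length of the gene, as a description over 13235 genes at E12.5 that share the depth and preparation of their library. Spearman's rho was -0.55 in XX KO replicate 1, -0.36 in XX KO replicate 3 and -0.34 in XX control replicate 3, so that long genes were low in these libraries, and it ran from -0.02 to 0.36 in the other 9. The median deviation of the 9 machinery genes was -0.40, -0.35 and -0.30 on the log2 scale in those 3 libraries and -0.05 to 0.24 in the others. The 3′ UTRs of the machinery genes differ widely in length. The longest annotated 3′ UTRs of Ago3 and Ago2 have 12742 and 11064 bases and stand at the 99.9th and 99.8th percentile of 20926 genes, and those of Ago1, Dicer1 and Ago4 have 4491, 3851 and 3682 bases. Those of Tnrc6a, Dgcr8 and Xpo5 have 2345, 1574 and 1327 bases, at the 79.6th, 66.4th and 60.7th percentile. Drosha has a 3′ UTR of 169 bases, at the 11.4th percentile. A trend with the share of G and C bases in the 3′ UTR was also present and was not removed. At E12.5 its rho was 0.31 and 0.54 in XX KO replicates 1 and 3 and 0.11 in XX control replicate 3, and -0.43 to 0.29 in the others. At E11.5 it was -0.49, -0.24 and -0.29 in XY KO libraries and 0.22, 0.32 and 0.13 in XY controls. Its part in the machinery values was not tested.

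**Figure D5:**
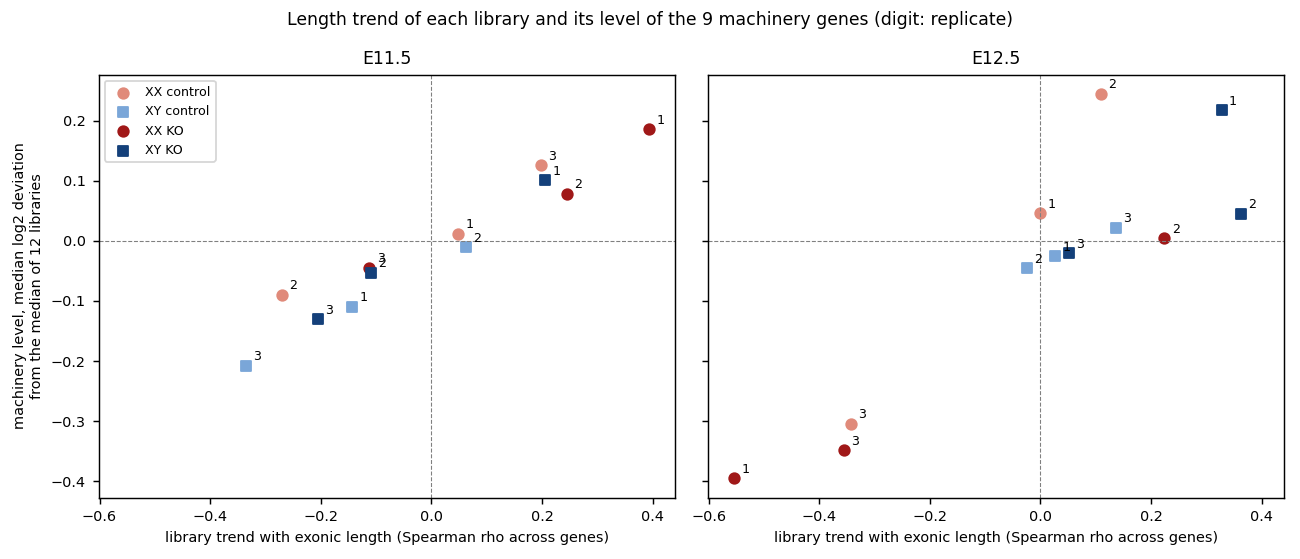
Trend of each library with exonic gene length (Spearman's rho across genes, x axis) and median log2 deviation of the 9 machinery genes from their median over the 12 libraries of the stage (y axis); digits are replicate numbers. At E12.5, XX KO replicates 1 and 3 and XX control replicate 3 sit at the lower left, and at E11.5 the points run from -0.34 and -0.21 in XY control replicate 3 to 0.39 and 0.19 in XX KO replicate 1.

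When the length trend was removed from each library, a step chosen after these values had been seen, none of the 9 genes was called in XX gonads of E12.5 with all 12 libraries. The log2 fold change of Dicer1 went from -0.24 to -0.05, that of Ago1 from -0.14 to -0.06 and that of Tnrc6a from -0.32 to -0.18. Ago2 kept -0.53 (FDR = 0.206), Ago3 -0.44 (FDR = 0.294) and Dgcr8 -0.41 (FDR = 0.0834). With the trend removed and XX KO replicate 2 left out, Ago2 (-0.86, FDR = 0.0456) and Ago3 (-0.83, FDR = 0.0377) were called and Dgcr8 (-0.47, FDR = 0.076) and Tnrc6a (-0.24, FDR = 0.144) were not. That fit called 1202 of 14334 genes, against 1009 with the trend removed and all 12 libraries. Ago4 at E11.5, averaged over both sexes, was -0.47 (FDR = 0.0174) with the trend removed. Germ cell markers also differed between the XX groups, with 966 to 1701 CPM over 8 markers in controls and 863, 834 and 402 CPM in KO replicates 1, 2 and 3, and so did mesonephric markers, with 37.9 to 45.7 CPM against 56.9, 112 and 138 CPM. The part of the cell makeup in the machinery values was not tested.

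Between XX and XY gonads the machinery was not called in any comparison of 1 genotype. At E11.5 the log2 fold changes of the 9 genes in XX against XY controls ran from -0.20 to 0.25, where 0.886% of all genes were called. At E12.5 they ran from -0.17 to 0.43, where 23.8% of all genes were called. In XX KO against XY KO gonads of E11.5 they ran from -0.07 to 0.29, where 0.0844% of all genes were called. The libraries of 2 of the 9 did not overlap there, as those of 24.5% of all genes did not. In XX KO against XY KO gonads of E12.5 all 9 values were negative, from -0.996 for Ago3 to -0.14 for Drosha, with 5 of 9 at an unadjusted p under 0.05, as 19.2% of all genes were, and none called, against 0.153% of all genes. This comparison and that with XX controls share the 3 XX KO libraries. Without XX KO replicate 2 the values for Ago2 (-1.43), Ago3 (-1.61), Dicer1 (-0.57) and Tnrc6a (-0.55) were called between the KO genotypes. That fit called 1828 of all 14348 genes, against 22 with all 12 libraries. The effect of the deletion in XY minus that in XX gonads was positive for all 9 genes at E12.5, up to 1.05 for Ago2 (95% interval 0.06 to 2.03, FDR = 0.165), and none was called. Without XX KO replicate 2 this difference was called for Ago2 (1.56, FDR = 0.0142), Ago3 (1.44, FDR = 0.016) and Tnrc6a (0.60, FDR = 0.0316). It was then called for 2495 of all genes, against 1857 with all 12 libraries. Without XX control replicate 3 it was called for Dgcr8 (0.63, FDR = 0.0411), as for 1765 of all genes. Dgcr8 was then also called between XX and XY controls (0.44, FDR = 0.0358), as 2841 of all genes were.

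Seed matches of the cluster occur in 6 of the 9 machinery genes. The longest annotated 3′ UTR of each gene was searched on the transcript strand for the complement of each seed, GCACTTT for miR-17, GCACCTT for miR-18, TTTGCAC for miR-19 and GTGCAAT for miR-92. Matches of the miR-19 and miR-17 families can overlap in the letters GCAC and did so in Ago1 and Ago3. Ago3 had 8 matches, Ago1 and Ago2 had 3 each, Dicer1 and Tnrc6a 2 each and Dgcr8 1, and none was found in Drosha, Xpo5 or Ago4. At least 1 match was present in 28.7% of 20926 genes (11.8% for miR-17, 7.82% for miR-18, 11.3% for miR-19 and 6.57% for miR-92), over 3′ UTRs of all lengths. The 3 matches that go on with the A opposite base 1 of the microRNA, the form that pairs best, are shown with the match in capitals, in GRCm38 on the reverse strand.
Dgcr8, miR-19, chr16:18254777-18254802: ttacagagattTTTGCACAaccaagc
Ago3, miR-92, chr4:126344243-126344268: gctctcttttaGTGCAATAagcagtt
Ago3, miR-92, chr4:126333837-126333862: caccgtgtgcaGTGCAATAgctaaca
None of the 9 genes, with a match or without, was called in KO against control gonads of 1 sex. Of all genes, 12.7% in XY and 3.27% in XX gonads were called at E11.5, and 20.6% and 5.26% at E12.5. Whether the cluster acts on these matches was not tested. A match of letters is not a measured site.

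The activators of the host gene were described next, as they share a pathway with Mir17hg. Mycn, a MYC family factor, rose in KO gonads of E11.5 in both sexes. It had 112, 109 and 112 CPM in XX controls and 167, 184 and 163 CPM in XX KO gonads (log2 fold change 0.62, standard error 0.10, FDR = 0.003), and 95.1, 124 and 97.3 CPM in XY controls against 155, 154 and 147 CPM in XY KO gonads (0.52, standard error 0.10, FDR = 0.00397). All KO libraries of Mycn lay above all control libraries, and both calls were kept when any 1 library was left out. Within a sex, the libraries of 28.5% of all genes in XY and 24.6% in XX gonads did not overlap at this stage. At E12.5 the values of Mycn were 0.19 in XX (FDR = 0.514) and 0.45 in XY gonads (FDR = 0.0829). E2f1 rose in XX gonads of E11.5, from at most 52.2 CPM in controls to 61.7 to 71.7 CPM in KO libraries (0.38, FDR = 0.046, up to 0.176 when 1 library was left out), and was 0.28 in XY gonads (FDR = 0.0763). Myc was not called in any of the 4 comparisons; in XX gonads of E12.5 it had 13.5 to 20.9 CPM in controls and 25.4 to 27.1 CPM in KO libraries (0.55, FDR = 0.113). E2f2 and E2f3 were not called, with log2 fold changes between -0.41 and 0.13. Seed matches also occur in E2f1 and E2f2, with 3 each, and in E2f3, with 2, of which 1 goes on with the A. Myc has none. The part of seed matches in the values of the activators was not tested. The 3′ UTR of Mycn holds 3 seed matches, of which the 2 that go on with the A are printed since Mycn was called.
Mycn, miR-18, chr12:12936141-12936166: tatttagtgctGCACCTTAgagcact
Mycn, miR-19, chr12:12936962-12936987: gtcactgccacTTTGCACAttttgat

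Beyond the core machinery, 68 of 72 further genes of the microRNA pathway were in the tables and all 68 were tested at both stages. In XY gonads of E11.5, 2 were higher and 3 lower in the KO, and in XX gonads 1 was lower. These are 7.35% and 1.47% of the list, against 12.7% and 3.27% of all genes. At E12.5, 4 were lower in XY and 3 lower in XX gonads, and none was higher, which is 5.88% and 4.41% against 20.6% and 5.26%. The median log2 fold change of the 68 genes was 0.00 and -0.01 in XY and XX gonads of E11.5, against -0.03 and -0.00 over all genes, and -0.07 and -0.13 at E12.5, against -0.01 and -0.00. No gene of this list was called in both sexes of a stage. Tnrc6b and Tnrc6c, the other two GW182 genes, were not called, with log2 fold changes of -0.37 to 0.15 and -0.28 to 0.03.

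Among the called genes with the largest changes at E11.5 in XY gonads, Cnot6, a deadenylase of the CCR4-NOT complex, rose by 0.39 (FDR = 0.019) and Ptges3, a co-chaperone of HSP90, by 0.27 (FDR = 0.0337). Mov10, an RNA helicase that binds Argonautes, fell by 0.47 (FDR = 0.00428) and Zswim8, which directs the decay of microRNAs with their Argonaute, by 0.43 (FDR = 0.0122). At E12.5 in XY gonads Fkbp5, a co-chaperone, fell by 0.54 (FDR = 0.00493) and Prkra, a partner of Dicer, by 0.43 (FDR = 0.0231). None of these 6 genes was called in XX gonads of the same stage. The calls of Mov10 and Fkbp5 were kept when any 1 library was left out, and those of Cnot6, Ptges3, Zswim8 and Prkra were each lost in at least 1 such fit.

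Lin28a and Trim71, genes of undifferentiated and germ cells tied to the let-7 microRNAs, made the largest changes in XX gonads. Lin28a had 21.4, 27.0 and 42.3 CPM in XX controls and 16.3, 20.1 and 13.4 CPM in XX KO gonads at E11.5, and fell by 0.86 on the log2 scale (FDR = 0.0342). At E12.5 it had 152, 222 and 136 CPM against 116, 108 and 58.8 CPM and fell by 0.85 (FDR = 0.0422). In XY gonads of E12.5 Lin28a had 59.0, 71.2 and 67.2 CPM in controls and 86.3, 99.2 and 96.2 CPM in KO libraries, a difference of 0.51 (FDR = 0.131). Trim71 had 44.2, 62.5 and 22.4 CPM in XX controls of E12.5 and 13.4, 27.3 and 10.5 CPM in XX KO gonads, and fell by 1.33 (FDR = 0.0444). Lin28b was not called in any of these comparisons, with -0.40 (FDR = 0.0592) and -0.80 (FDR = 0.0746) in XX gonads of E11.5 and E12.5. XX KO replicate 3 of E12.5, the lowest library for all 3 genes, was also the lowest for the germ cell markers, at 402 CPM. The call of Trim71 was lost in 10 of 12 fits that leave out 1 library, that of Lin28a in 7 of 12 at E12.5 and in 4 of 12 at E11.5, where the value of Lin28a went to -0.54 (FDR = 0.147) without XX control replicate 3. The part of the germ cell number in these values was not tested.

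Host genes of other microRNAs gave a comparison for Mir17hg. Of 31 listed, 30 were in the tables and tested. In XY gonads 2 were higher and 3 lower at E11.5 and 3 higher and 3 lower at E12.5, and in XX gonads 1 was higher and 1 lower at E11.5 and 4 were higher at E12.5. The called share was 16.7% in XY and 6.67% in XX gonads of E11.5, against 12.7% and 3.27% of all genes, and 20% and 13.3% at E12.5, against 20.6% and 5.26%. Mcm7, the replication gene that hosts the related miR-106b~25 cluster with the miR-17 and miR-92 seeds, was not called in any of the 4. It had 234 to 298 CPM in all libraries of E11.5 and 229 to 308 CPM at E12.5, and its log2 fold changes lay between -0.22 and 0.13. No host gene was called in the same direction in both sexes of a stage, as Mir17hg was at both.

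The called host genes with the largest changes included Mir22hg and Col27a1. Mir22hg, the host of miR-22, fell in XY gonads by 1.14 at E11.5 (FDR = 0.0292) and by 1.37 at E12.5 (FDR = 0.00403). Col27a1, a collagen gene that hosts miR-455, had 183, 196 and 130 CPM in XY controls of E12.5 and 49.9, 77.3 and 81.2 CPM in XY KO gonads, and fell by 1.29 (FDR = 0.000488), after a fall of 0.96 at E11.5 (FDR = 0.00112). In XX gonads of E12.5 Col27a1 rose by 0.89 (FDR = 0.0308), from 37.8 to 48.9 CPM in controls to 59.2 to 91.3 CPM in the KO. H19, the imprinted host of miR-675, and Pank1, a pantothenate kinase that hosts miR-107, rose in XY gonads of E12.5 by 0.91 (FDR = 0.000251) and 0.83 (FDR = 0.000339). Pank1 fell in XX gonads of E11.5 by 0.60 (FDR = 0.00986), and Slit3, a guidance ligand that hosts miR-218, rose in XX gonads by 0.55 at E11.5 (FDR = 0.0273) and 1.15 at E12.5 (FDR = 0.04). The latter went to 0.64 (FDR = 0.07) without XX KO replicate 2, and the call of Slit3 at E12.5 was lost in 7 of 12 fits that leave out 1 library. In XY gonads of E11.5 Pank3 and Smc4, the host of miR-15b and miR-16, rose by 0.31 (FDR = 0.0394) and 0.29 (FDR = 0.0498). The calls of Col27a1 in XY gonads, of Mir22hg, H19 and Pank1 in XY gonads of E12.5 were kept when any 1 library was left out, and the others named here were each lost in at least 1 such fit.

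The tested genes whose log2 level, with a pseudocount of 2 CPM, was most like that of Mir17hg over the 12 libraries of E11.5 were Tor1b (Pearson's r = 0.985), Poglut1 (0.958), Dguok (0.953), Tm4sf1 (0.953) and Zfp367 (0.953). At E12.5 they were Tfpi2 (0.939), Apln (0.937), Met (0.933), Eif4b (0.932) and 9930014A18Rik (0.929). No gene was in both lists. For Ago4 at E11.5 they were Myo1f (0.947), Madd (0.936), Fzd5 (0.931), Fn3krp (0.917) and Orc1 (0.915). These values rest on libraries that share genotype and depth and are given as a description.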

How the data were processed

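Reads of each library were aligned to mouse mm10 (GRCm38) and summed per gene by the authors with align and featureCounts of the subread package in R. The deposited values are counts, whole numbers without normalization, in 1 table per stage. The annotation and strand setting are not given in the sources used here. A further 12 columns of per-sample values, from Foxl2 3′ UTR mutants, could not be tied to 1 sample each and were left out.

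Each stage was fitted alone with edgeR 4.0.16 in R 4.3.3 (TMM, robust dispersions, quasi-likelihood test, 1 mean per genotype) over genes that reached 1 CPM in 2 or more libraries, with Benjamini-Hochberg adjustment over all of them and calls at FDR under 0.05. DESeq2 1.42.0, other scalings and filters, leaving out each library and, added later, removal of a gene length trend were alternatives. The fit was checked on simulated data. Depth was 11877379 to 44155275 counts. Replicates differed by 7.19 to 84.5 times the sampling variance, and since the labels name no litter, p-values measure the spread between these pools. Positions and 3′ UTRs came from the GENCODE annotation of GRCm38.

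The members and lists were chosen with earlier results of these data known. Text names all members, Mcm7, Lin28a, Lin28b, Tnrc6b, Tnrc6c, the MYC and E2F activators, list genes called alike in both sexes of a stage, otherwise the 2 largest increases and decreases among called genes per comparison, and the 5 genes most like Mir17hg and Ago4. The pathway list lacked Cnot9, Tut4, Tut7 and Tent2 in the tables, and the host gene list Mir100hg. CPM were summed per library over markers of gonadal somatic, Sertoli, germ, mesonephric and erythroid cells and of macrophages. Pre-granulosa, fetal Leydig, endothelial and proliferation markers were summed likewise, and their values are not given here.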

Additional observations from a re-analysis of the deposited data

Results flagged for a closer look

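At E12.5 the effect of the deletion differed between the sexes, by the test of the difference itself, for 9 of 98 genes of the microRNA pathway and host gene lists and for none of the 10 genes described above. These 9 are 9.18% of the lists, below the 12.9% of all genes called for this difference. The log2 values that follow are the effect in XY minus that in XX gonads. In the pathway list it was 1.37 (standard error 0.32, FDR = 0.0102) for Lin28a, with 0.51 in XY and -0.85 in XX gonads, and 1.12 (FDR = 0.05) for Lin28b, with 0.32 and -0.80. It was 0.98 (FDR = 0.0471) for Cnot1, the scaffold of the CCR4-NOT deadenylase, with 0.34 and -0.64. It was -0.69 (FDR = 0.0163) for Prkra, with -0.43 and 0.26.

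Among the host genes the difference was -2.18 (standard error 0.30, FDR = 0.00019) for Col27a1, which fell in XY and rose in XX gonads, and 1.28 (FDR = 0.00028) for Pank1, with 0.83 and -0.45. It was 0.71 (FDR = 0.0276) for H19 and 0.68 (FDR = 0.027) for Igf2, neighbouring imprinted genes that rose in XY gonads and stood at 0.21 and 0.13 in XX gonads. It was -1.03 (FDR = 0.013) for Copz2, with -0.36 in XY and 0.67 in XX gonads. Sertoli cell markers separate XY control from XY KO gonads at this stage, and their part in these differences was not tested.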

How the results depend on the processing

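The increase of Mir17hg in KO gonads was called in both sexes and stages under each alternative except in XX gonads of E12.5 without XX control replicate 1. Among 49 results for single genes of the 10, 936 of 999 values under alternatives kept their direction and their side of the threshold. The number of the 10 genes called in XX KO against XX control gonads of E12.5, 1 in the report, was 2 with DESeq2. It was 3 with the length trend removed and XX KO replicate 2 left out. It ran from 0 to 5 when 1 library was left out, while calls over all genes ran from 35 to 1680. For XX against XY controls of E12.5 it was 0 instead of 1 with only the groups compared, with a replicate block and with the length trend removed without XX KO replicate 2, and 0 to 1 when 1 library was left out. With the trend removed without XX KO replicate 2 it was 2 for the difference of the KO effect between the sexes and 1 for the KO genotypes of E12.5 against each other, where leaving out 1 library gave 0 to 3 and 0 to 4. Over all genes leaving out 1 library gave 1342 to 2495 and 14 to 1828 in these comparisons. Of the 10 genes, leaving out 1 library called 1 to 2 in the averaged comparison of each stage, 0 to 2 in XX against XY controls and 0 to 1 in XX KO against XY KO gonads of E11.5. Over all genes these comparisons of the sexes at E11.5 gave 56 to 2505 and 8 to 202. The cause of these changes was not tested. Replicate numbers did not pair the samples, since same-numbered libraries did not all deviate together, and the replicate block changed no call of the 10 genes other than the one given.

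Small values of uncalled genes changed sign in 32 fits over 11 results, with FDR of at least 0.638. For Drosha in XX gonads of E11.5 the log2 fold change was -0.0011 with DESeq2, -0.0011 with RLE factors, -0.0042 with no filter, -0.0025 with only the groups compared, -0.018 with the length trend removed, -0.051 with library size only, and -0.066 to 0.062 when 1 library was left out. For Ago2 in XY gonads of E11.5 it was -0.020 with the trend removed, -0.026 with library size only, -0.0050 with the replicate block and -0.13 to 0.14 when 1 library was left out. For Tnrc6a at E11.5 it was -0.019 in XX and -0.0076 in XY gonads with the trend removed, -0.0098 and -0.010 with library size only, and -0.054 to 0.13 and -0.033 to 0.073 when 1 library was left out. For Dicer1 in XY gonads of E12.5 it was -0.032 with the trend removed, -0.029 with XX KO replicate 2 also left out, and -0.0011 to 0.096 when 1 library was left out. For Xpo5 in XY gonads it was 0.017 at E12.5 with library size only, and leaving out 1 library gave -0.050 to 0.019 at E12.5 and -0.056 to 0.13 at E11.5. Leaving out 1 library gave -0.12 to 0.067 for Ago1 in XY gonads of E11.5 and -0.094 to 0.0045 for Dgcr8 in XY gonads of E12.5. It gave -0.50 to 0.075 for the difference of the KO effect on Mir17hg at E11.5 and -0.095 to 0.065 for Mir17hg in XX KO against XY KO gonads of E12.5.

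Of 33 calls of other genes in KO against control gonads, 10 were kept when any 1 library was left out and 23 were lost in at least 1 such fit, and none changed sign. The groups of 3 pools limit what can be called. The widest interval of a machinery gene in KO against control gonads of 1 sex, that of Ago3 in XX gonads of E12.5, reached from -1.31 to 0.15.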
